A study of Drosophila melanogaster with 2 samples.

Results

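The 10 genes described here, CG31388, CG1792, CG18476, pita, M1BP, ZIPIC, ouib, nom, weck and grau, belong to the ZAD zinc finger family of Drosophila melanogaster. They were taken by name from 13945 protein-coding genes on the 6 chromosome arms, and the symbols were matched to the Ensembl 115 annotation, where weck is written wek. The data are ChIP-seq of the protein of CG31388 itself, so each gene was examined for signal of one member of the family on the gene of another, or on its own gene. Chromatin came from whole embryos of both sexes, 0 to 16 h old, of a stable transgenic fly line in which CG31388 carries GFP at its C-terminal end, and was precipitated with an antibody to GFP. The labels name an insertion aimed at CG31388, but neither a promoter for the transgene nor whether an untagged copy remains. The 2 libraries, numbered as biological replicates 2 and 4 with technical replicate 1 in both, form 1 group, and no untagged group was analysed here.

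ZAD proteins pair an N-terminal zinc-finger-associated domain, in which cysteines hold a zinc ion and which lets the proteins dimerise, with C2H2 zinc fingers that read DNA. The family has expanded in insects, and many of its members have no assigned target. Those that are known serve different ends. Pita and ZIPIC recruit the insulator protein CP190, M1BP binds the motif 1 element of core promoters, ouib acts in ecdysone synthesis, grau activates a gene needed in female meiosis, and weck is an adaptor in Toll signalling.

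Each of the 10 proteins held the paired-cysteine pattern near its N-terminus, as a translation of the annotated coding sequence showed. The number of residues between the 2 cysteine pairs ran from 39 in weck to 47 in CG18476. CG31388 has 446 residues and 7 C2H2 fingers. CG18476 is the longest member, with 936 residues and 17 fingers, and ouib the shortest, with 312 residues and 5 fingers. Identity over the 45 pairs of proteins ran from 22.9%, for CG31388 and ZIPIC, to 42.0%, for M1BP and ouib, with a median of 29.4%. Ouib and nom shared 40.9% of aligned residues, and CG31388 was closest to ouib, at 33.1%. The letters of the proteins are not shown here.

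To show what DNA the tagged protein was found on, the bases within 50 bp of the summit are given for the 3 member promoters on 3R with a reproducible peak and for the peak closest to weck, and those within 50 bp of the start site of CG31388 stand beside them as a place with no region in any list. A reproducible peak is a region that passed the authors' irreproducible discovery rate (IDR) step, which compares the replicates. Not all of these peaks had their summit in a region of both libraries. The word therefore names the authors' list and does not mean that a peak was seen in each library. The bases are RefSeq reference sequence of dm6, plus strand, 5′ to 3′. Capitals mark every base covered by any of the 15 words of 7 bases that set the summits of all 1872 reproducible peaks most apart from their flanks.
CG1792 summit, chr3R:31616117-31616217: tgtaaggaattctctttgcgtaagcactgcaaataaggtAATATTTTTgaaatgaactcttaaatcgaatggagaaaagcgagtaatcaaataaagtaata
CG18476 summit, chr3R:11678266-11678366: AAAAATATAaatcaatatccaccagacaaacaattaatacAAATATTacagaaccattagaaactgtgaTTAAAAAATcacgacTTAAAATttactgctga
M1BP summit, chr3R:8731954-8732054: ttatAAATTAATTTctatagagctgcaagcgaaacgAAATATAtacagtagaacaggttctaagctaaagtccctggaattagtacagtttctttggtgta
Summit near weck, in Gli, chr2L:15762115-15762215: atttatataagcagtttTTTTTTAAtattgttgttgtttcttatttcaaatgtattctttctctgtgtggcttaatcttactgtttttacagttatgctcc
CG31388 start site, chr3R:11237765-11237865: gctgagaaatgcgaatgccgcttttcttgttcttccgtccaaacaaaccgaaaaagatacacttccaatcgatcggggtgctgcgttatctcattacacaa

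All 15 words consist of A and T. The summit windows of CG18476, CG1792, M1BP and the peak near weck held 8, 3, 2 and 2 of them. Of the member peaks not printed, that of pita held 1 and that at wmd none. The start site window of CG31388 held none, but so did those of CG1792 and pita, which have a promoter peak. Start site windows of CG18476 and M1BP held 4 and 2. Among the members without a promoter peak, weck held 1 at its start site, and ZIPIC, ouib, nom and grau none. Over all peaks, 70.0% of summit windows held at least 1 of the words, against 34.96% of windows 300 bp to each side and 36.4% of 19252 windows at start sites of protein-coding genes. The words were ranked on the same peaks, so these shares describe how they were chosen. AAAATAT, with its reverse complement, was the first word and lay in 17.9% of peaks and 5.93% of flanks, and in the windows of CG1792 and CG18476. The words overlap one another, and several can lie in the same run of A and T.

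CG31388-GFP had a reproducible peak at the promoter of 4 of the 10 genes, CG1792, CG18476, M1BP and pita. A promoter was called occupied when the summit lay within 500 bp of an annotated transcription start site (TSS). Over all protein-coding genes the share was 10.1%, or 1411 of 13945. Some of the 10 genes were listed with their peaks already known, so 4 of 10 is a description of these genes and not evidence on the family. Among 59 other ZAD genes, named from general knowledge and kept where the protein held the paired-cysteine pattern, 11 had such a peak (18.6%). No number of C2H2 fingers was required of them. By the pattern searched, CG31109 and CG31457 had 0 fingers and CG17361 had 1. CG31388, ZIPIC, ouib, nom, weck and grau had none.

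The signal is the enrichment that the authors deposited for each region, on a scale that the sources used here do not state. Read depth is unknown. Over the 1872 reproducible peaks the signal ran from 53.8 to 771, with a median of 77.9. The pooled list, labelled by the authors as peaks together with background, holds 28750 regions, called candidates here, with a median of 21.0. The lists of replicate 2 and replicate 4 hold 30000 regions each, with median signals of 8.54 and 15.6, so signals were compared within a list only and ranks were used between the libraries. Their lowest signals were 6.16 and 11.6. A library with no region at a place thus had none among its 30000, and weaker signal there was not seen. The libraries name different protocol documents, and this difference cannot be told apart from the replicate. The 4 promoter peaks had signals of 249 at CG1792, 107 at CG18476, 93.7 at M1BP and 66.7 at pita. Their median of 100.2 stands beside 82.7 for the 11 other occupied ZAD genes and 81.8 for all 1411 occupied genes.

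**Figure D1:**
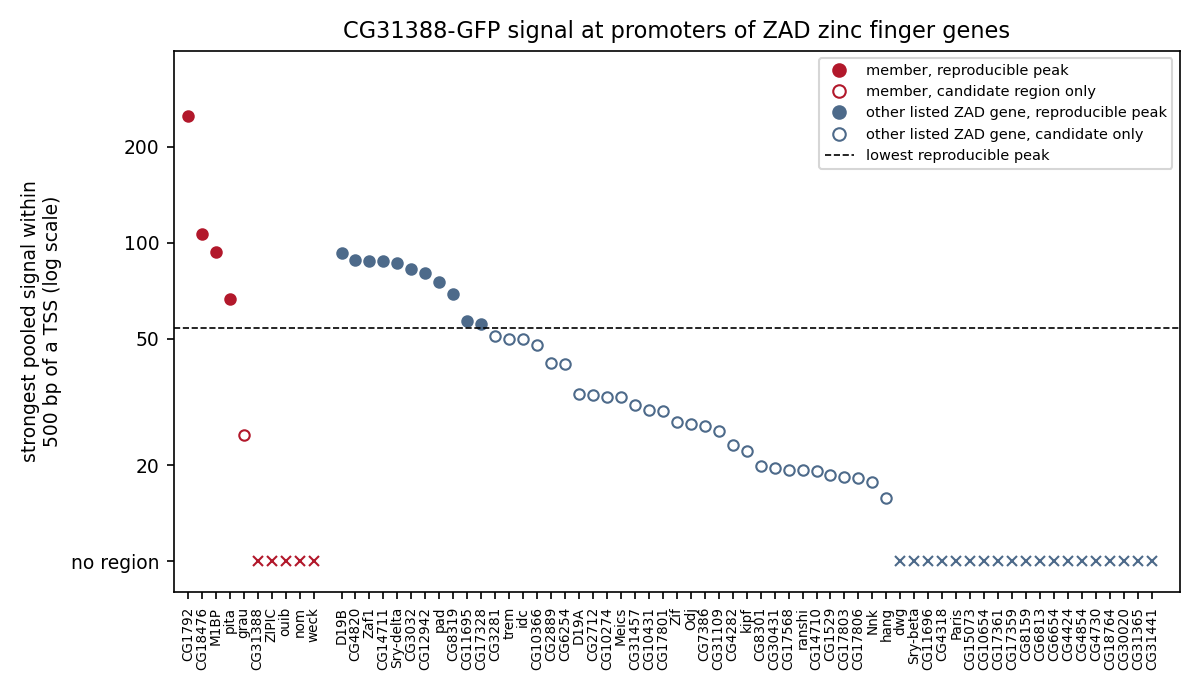
Strongest pooled signal (log scale) with its summit within 500 bp of a TSS, for the 10 members (red, left) and the 59 other listed ZAD genes (blue, right). Filled points are reproducible peaks, open points are candidates only, crosses have no region, and the dashed line is the lowest reproducible peak at 53.8. CG1792, at 249, stands above all other genes shown, and 5 members have no region.

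The promoter of CG1792, a gene with no role assigned here, carried by far the strongest of these peaks. The gene lies at 3R:31616303-31617837 on the plus strand (FBgn0039860). Its peak, 3R:31616066-31616297, ranked 69 of 28750 in the pooled list. It ranked 58 in replicate 2, with a signal of 97.3, and 78 in replicate 4, with a signal of 151. Both libraries thus placed it among their strongest regions. The peak was 232 bp wide, and only 103 of the 1872 peaks were as narrow or narrower, against a median width of 396 bp.

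That summit fell between divergent genes. It lay 136 bp upstream of the CG1792 TSS and 7 bp from a TSS of Mnat9, an N-acetyltransferase gene on the opposite strand, and the TSSs of the pair are 143 bp apart. The peak can be assigned to either gene, and by the nearest TSS it belongs to Mnat9. The other 3 candidates within 5 kb of CG1792 had signals from 17.0 to 20.4, all far below it. In pooled rank its neighbours were peaks near norpA (signal 249.5) and CG11857 (249.2) above it, and near Raf (243.4) and lncRNA:CR46035 (243.3) below it. Among these only the peak of CG11857 lay close to a TSS, at 57 bp, while the others were 700 bp or more away.

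CG18476, the member with the most zinc fingers, lies at 3R:11674920-11678116 on the minus strand (FBgn0037931). Its peak, 3R:11678118-11678513, had a signal of 107 and ranked 477 in the pooled list. It ranked 254 in replicate 2 (signal 53.1) and 688 in replicate 4 (58.8), higher in replicate 2. The summit was 200 bp upstream, in the 269 bp between CG18476 and the end of Taf12, which encodes a subunit of the general transcription factor TFIID. No other gene's TSS lay within 500 bp, so of the 3 strongest member peaks only this one had a single gene's TSS in its window. A second region in replicate 4, at 281 bp and rank 4899, overlapped it. Peaks with the nearest ranks were those near S (106.8), Snap29 (106.8), CG6527 (106.7) and aru (106.6).

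The M1BP promoter peak was again shared. M1BP, whose protein binds promoters of many housekeeping genes, lies at 3R:8729790-8731698 on the minus strand (FBgn0037621). The peak at 3R:8731806-8732201 had a signal of 93.7 and ranked 637 in the pooled list, 496 in replicate 2 (signal 39.6) and 844 in replicate 4 (53.9). Its summit was 306 bp from the M1BP TSS and 87 bp from that of the divergent CG8202, with 393 bp between the TSSs. With a window of 250 bp, the peak no longer counted for M1BP. Replicate 4 also had a second region, overlapping the first, with its summit 49 bp from the M1BP TSS, rank 1457 and signal 40.7. The peaks of adjacent rank were near lncRNA:CR45737 (94.1), CG31855 (93.9), lncRNA:CR44917 (93.6) and cnn (93.6).

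The pita promoter peak was the weakest of the 4 and differed most between the libraries. Pita lies at 2R:23548967-23554712 on the minus strand (FBgn0034878) and has 2 annotated TSSs. The peak at 2R:23554377-23554772 had a signal of 66.7 and rank 1285 in the pooled list. It ranked 974 in replicate 4 (signal 49.998) and 9249 in replicate 2 (10.3). With 1 library on each side this gap has no replicate check. The summit lay 137 bp downstream of the first TSS, in the 5′ UTR, with no other gene's TSS within 500 bp. Peaks near CG32182, RpL11, RpL27A and CG3434 had the adjacent ranks, with signals that all round to 66.7, and the last 3 of these lay within 110 bp of a TSS.

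A further reproducible peak lay 910 bp beyond the 3′ end of pita, at 2R:23547859-23548254. It had a signal of 65.2 and rank 1338, close to that of the promoter peak, but here replicate 2 ranked it higher (664, signal 34.5) than replicate 4 (2118, signal 33.3). Its summit was 69 bp from the TSS of wmd. At the second pita TSS there was a candidate with a signal of 29.1 (rank 6058) that was not reproducible, 294 bp from that TSS and 56 bp from the TSS of Dcp-1, a caspase gene nested in pita. It had a region in replicate 2 (rank 4108) and none in replicate 4.

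**Figure D2:**
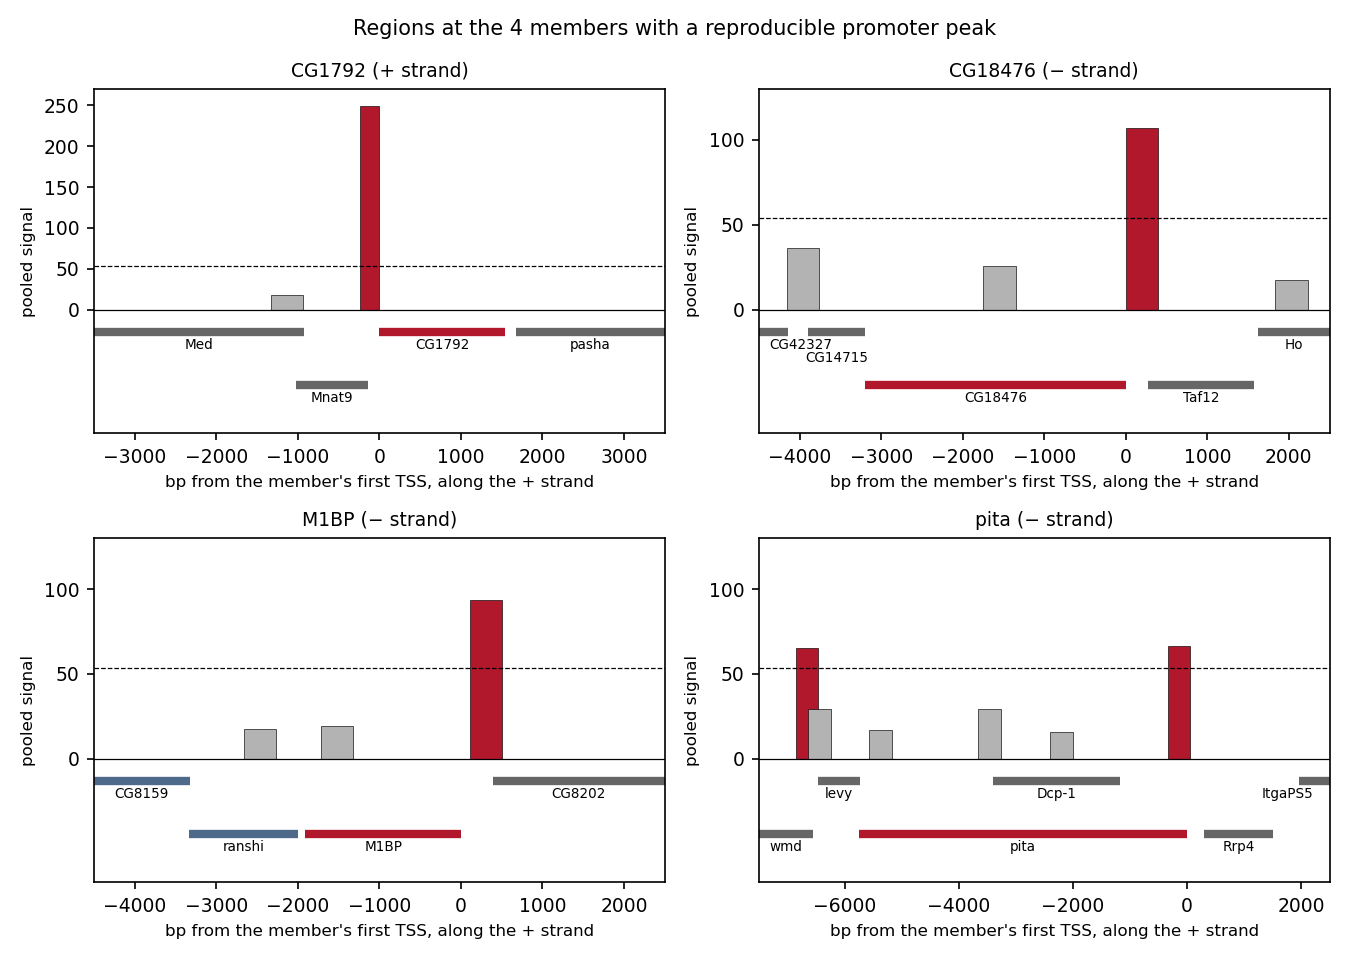
Pooled signal of regions within 5 kb of the gene (bars, drawn at their width) against distance from the member's first TSS in bp, for CG1792, CG18476, M1BP and pita. Weak regions of CG1792 (signals 20.4 and 17.0) and CG18476 (18.8, 18.3 and 17.3) lie beyond the axes and are not drawn. Red bars are reproducible peaks, grey bars other candidates, and the dashed line is the lowest reproducible signal, 53.8. Genes on the plus strand are drawn above those on the minus strand, with the member in red and other genes with the paired-cysteine pattern in blue. Each member has a red bar whose summit is within 500 bp of its TSS.

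**Figure D3:**
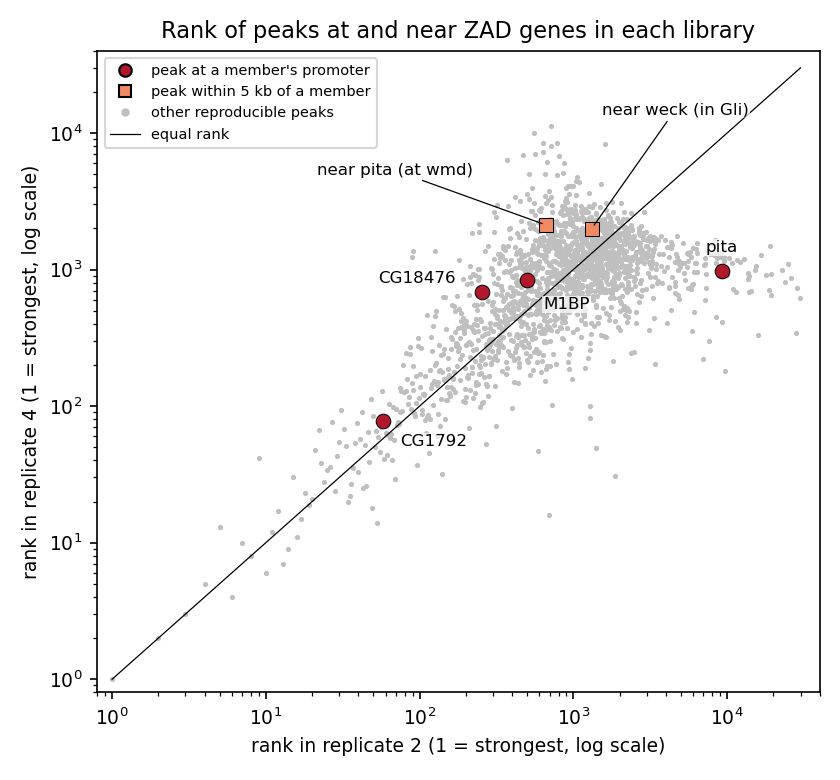
Rank of each reproducible peak in replicate 2 (x) and replicate 4 (y), both on log axes, where 1 is the strongest of 30000 regions. Red circles are promoter peaks of members, orange squares peaks within 5 kb of a member, and grey points other peaks found in both libraries. CG1792 lies near the line of equal rank at 58 and 78, and pita lies far to its right at 9249 and 974.

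The gene of the tagged protein itself had no region at its promoter in any of the 4 lists. CG31388 lies at 3R:11237815-11240114 on the plus strand (FBgn0051388). The pooled list has 6 candidates within 5 kb of it, none reproducible, with signals from 16.1 to 42.7. The strongest, 3R:11242913-11243308 in an intron of CG17734, had a signal of 42.7 and rank 2758. It ranked 1880 in replicate 2 and 3773 in replicate 4, so replicate 2 placed it just outside the 1872 strongest of its list. The next, 3R:11244065-11244460, lay 39 bp from the TSS of CG5214 with a signal of 36.6, and had rank 1239 in replicate 2 and no region in replicate 4. The closest candidate to the CG31388 TSS was 2100 bp upstream, with a signal of 22.0, in coding sequence of CG17721. Another gene with the ZAD pattern, CG31441, ends 190 bp upstream of CG31388 and had no candidate at its promoter either.

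The nearest reproducible peak was 11159 bp from the CG31388 TSS, and 38.3% of protein-coding genes had one nearer to a TSS. That peak was strong, with a signal of 274 and rank 52. It lay at 3R:11226556-11226776 in the 3′ UTR of scpr-C, 106 bp from the TSS of CG17726.

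ZIPIC, the other CP190-recruiting protein of the list, was the only member with no pooled candidate nearby. The gene is at 3R:30035240-30036870 on the minus strand (FBgn0039740), and the pooled list was empty within 5 kb of it. Replicate 4 had a region 153 bp from its TSS, with rank 14406 and signal 15.8, and replicate 2 one at 635 bp, with rank 20647 and signal 7.44. Both values were close to or below the median signal of their library, 15.6 in replicate 4 and 8.54 in replicate 2. The nearest reproducible peak was 6429 bp away at the promoter of Sry-delta, another ZAD gene.

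Nom, ouib and M1BP sit in a run of 5 neighbouring family genes, nom, ouib, CG8159, ranshi and M1BP, which spans 8.525 kb of 3R from 8723174 to 8731698. Inside the run were 3 candidates and no reproducible peak. The M1BP peak lies just past its end, on the CG8202 side. The strongest candidate inside, 3R:8723949-8724344, fell in coding sequence of nom with a signal of 26.3 (rank 7849) and ranks of 12361 in replicate 2 and 10836 in replicate 4. It was 973 bp from the nom TSS and 1332 bp from that of ouib. At the nom promoter each library had a weak region, but at a different place. That of replicate 2 (rank 21757) lay 406 bp upstream of the TSS, and that of replicate 4 (rank 21103) 416 bp downstream. At the ouib promoter no list had a region. Ouib, the member closest in sequence to M1BP, had no region at its promoter in any list, and M1BP had at least 1 in each.

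Weck, at 2L:15766133-15768349 on the minus strand (FBgn0001990), had a single weak region at its promoter, in replicate 2 (rank 24748, signal 6.82). A reproducible peak lay 3968 bp beyond its 3′ end, at 2L:15761967-15762362. It had a signal of 61.6 and rank 1485, and ranked 1315 in replicate 2 (signal 24.8) and 1993 in replicate 4 (34.4). Its summit was in an intron of Gli, which encodes gliotactin, a protein of septate junctions, 243 bp from a Gli TSS, so by position it is a Gli peak.

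Grau, at 2R:21009764-21011921 on the minus strand (FBgn0001133), had a candidate at the promoter, and it did not reach the reproducible list. This region, 2R:21011307-21011702, lay in its coding sequence 416 bp from the TSS, with a signal of 25.0 and rank 9021. Replicate 4 had it at rank 10320, and replicate 2 had no region there. The divergent CG9346 starts 49 bp from the grau TSS, and neither gene had a peak.

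**Figure D4:**
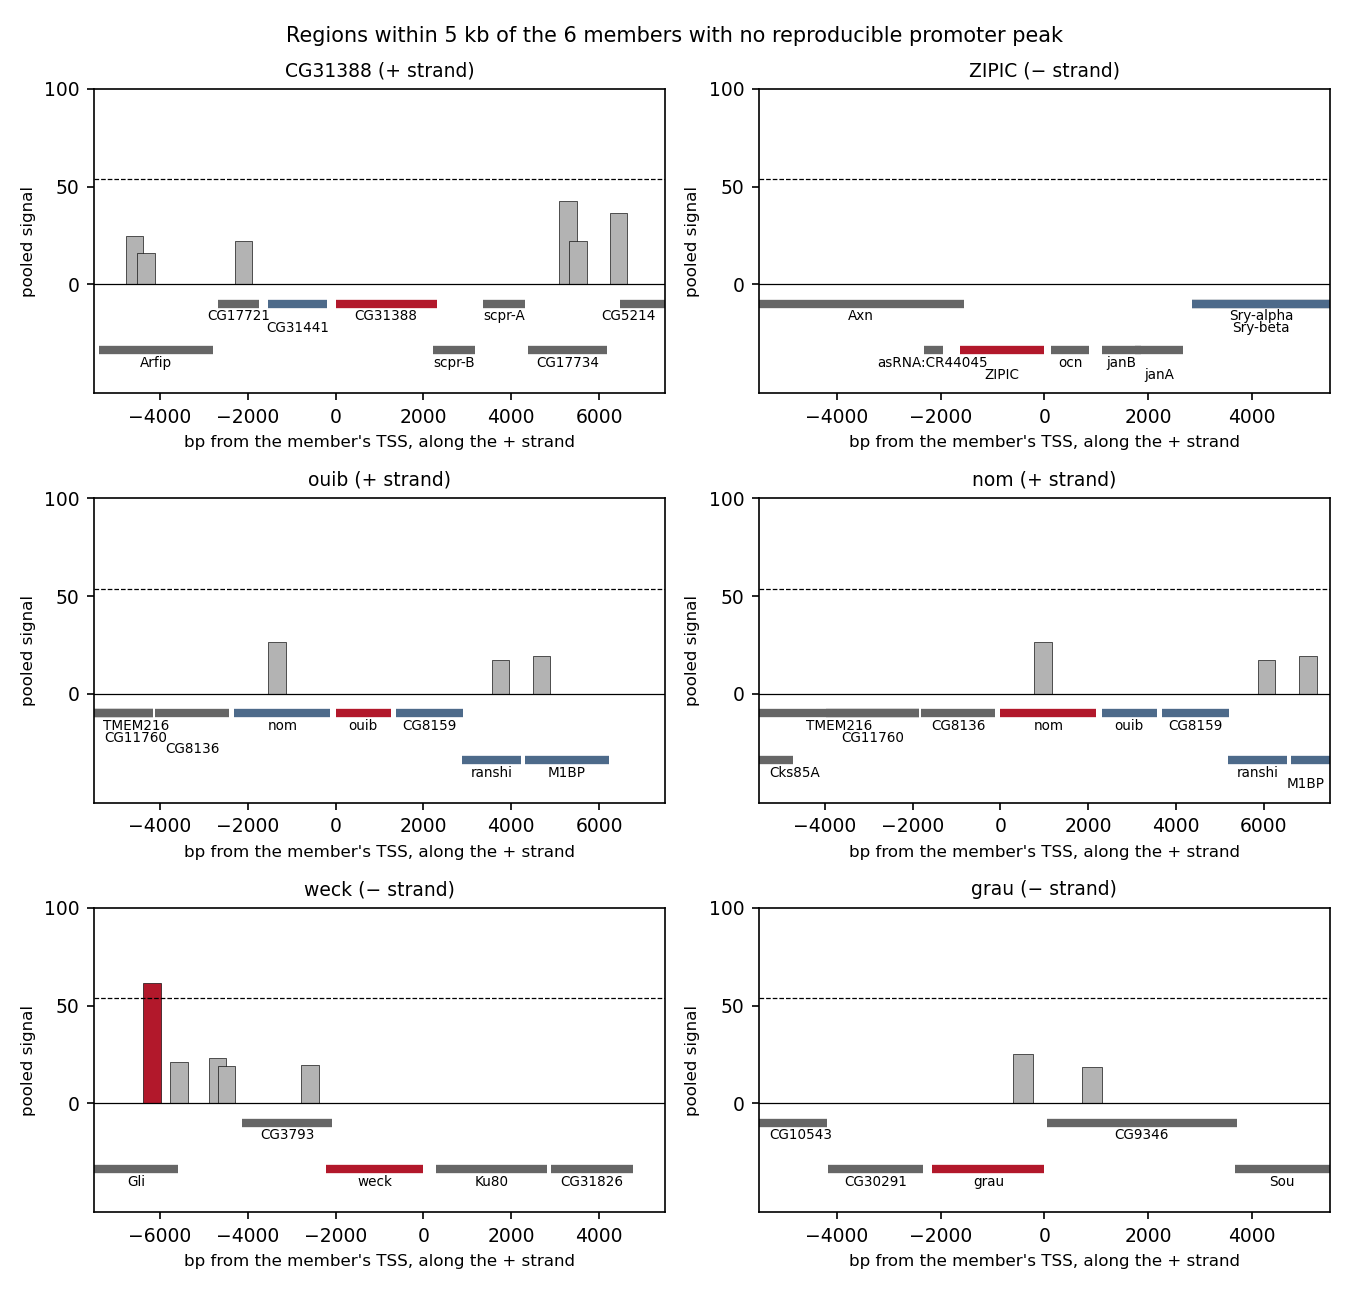
Pooled signal of every region within 5 kb of CG31388, ZIPIC, ouib, nom, weck and grau against distance from the TSS in bp, with the dashed line at the lowest reproducible signal, 53.8. Red bars are reproducible peaks and grey bars other candidates, the gene named in each title is red, other genes with the paired-cysteine pattern (ouib, nom and M1BP among them) are blue, and plus-strand genes are drawn above minus-strand ones. The only bar above the line is the 61.6 peak in Gli, and the ZIPIC panel has no bar.

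Looser calls took in more of the 10 genes, and more of all genes. A candidate of any strength lay at the promoter of 5 members, the 4 above and grau, against 46.5% of protein-coding genes and 40 of the 59 other ZAD genes (67.8%). Regions of replicate 2 lay at 6 member promoters, those of CG1792, CG18476, M1BP, nom, pita and weck, against a background of 45.8%. Regions of replicate 4 lay at 7, those of CG1792, CG18476, M1BP, ZIPIC, grau, nom and pita, against 46.6%. Within 5 kb of the gene, 5 members had a reproducible peak, the 4 above and weck, against 27.8% of protein-coding genes and 30 of the 59 other ZAD genes (50.8%). A candidate lay within 5 kb of 9 members, all but ZIPIC, and of 91.6% of protein-coding genes, so that count says nothing particular about them.

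In all, 34 candidates lay within 5 kb of a member. The 6 that were reproducible had signals from 61.6 to 249, and the 28 that were not ran from 15.9 to 42.7 with a median of 20.05. The reproducible list consists of the 1872 strongest pooled candidates, so the first had to be stronger than the second. The member regions nearest to that limit were those near weck, at 61.6, and near CG31388, at 42.7. The latter lay in a region of both libraries, so a candidate called not reproducible need not be absent from either. From member TSS to nearest reproducible peak the distance ran from 136 to 11159 bp, with a median of 6306.5 bp, beside 5372 bp for the other listed ZAD genes and 18615 bp for all protein-coding genes.

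Shared promoters were common among all peaks. Of the 997 reproducible peaks at promoters of protein-coding genes, 452 (45.3%) lay within 500 bp of TSSs of 2 or more genes, and 432 (43.3%) of genes on both strands. Of the 4 member peaks, those of CG1792 and M1BP were shared and those of CG18476 and pita were not. When each peak was given only to its nearest TSS, CG18476 and pita were the 2 members left. That setting kept no 500 bp limit, as it took in 1544 protein-coding genes (11.1%), more than the 1411 occupied ones. Its 11.1% is therefore not a share of promoters.

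The member peaks were poor in GC, as were the peaks of the whole list. Median GC content within 50 bp was 31.7% at the summits of all peaks, 44.6% in flanks and 43.6% at start sites. From the 10th to the 90th percentile the peaks ran from 22.8% to 44.6%. The summits of CG18476, the peak near weck, CG1792, M1BP and pita had 24.8%, 25.7%, 29.7%, 32.7% and 32.7%, and the second peak of the pita locus, at wmd, had 40.6%. All 6 lay within that range. The start sites of the same genes ran from 32.7% at CG18476 to 54.5% at pita, and the start site of CG31388 had 44.6%. At each of the 4 promoters the summit thus lay in a stretch poorer in GC than the member's own start site. The CG1792 summit is itself 7 bp from a TSS of Mnat9, and the M1BP summit 87 bp from that of CG8202. For these genes the contrast therefore holds only for the member's TSS.

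**Figure D5:**
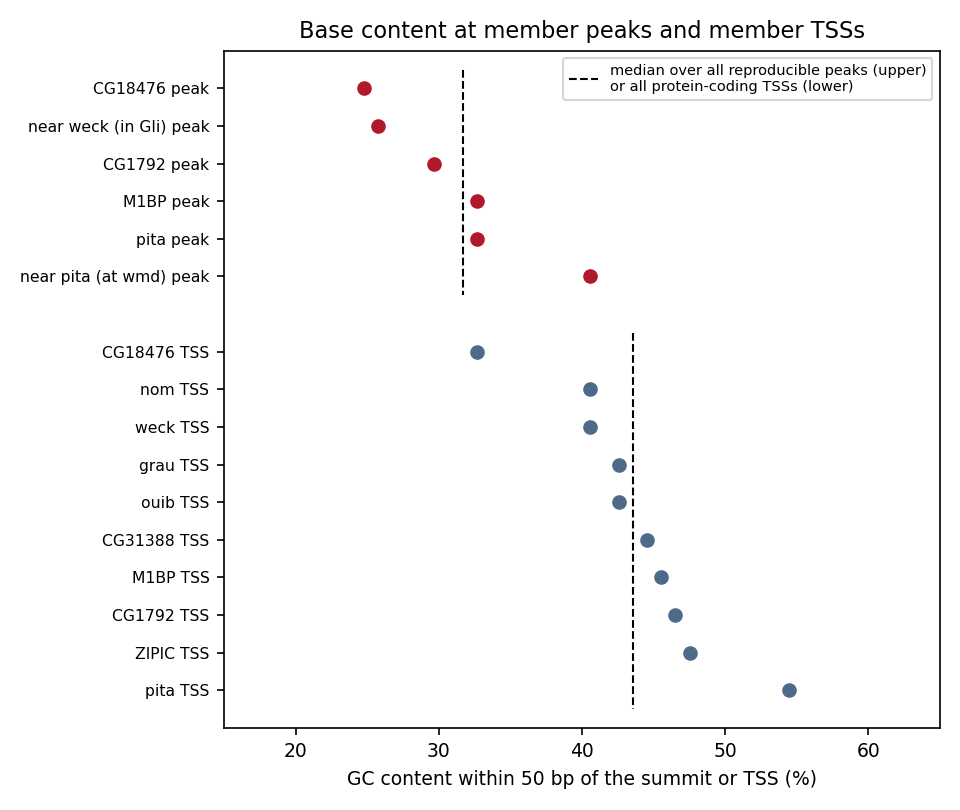
GC content in percent within 50 bp of each member peak summit (red, upper rows) and of the first TSS of each member (blue, lower rows). Dashed lines are the medians over all 1872 reproducible peaks, 31.7%, and over start sites of protein-coding genes, 43.6%. CG18476, CG1792, M1BP and pita each have a lower value at the peak than at the TSS.

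Of the known promoter motifs searched for, only CGATA lay at member peaks. On either strand of the same windows, CGATA was found at both pita locus peaks, and TATCGATA, GAGAG and GGTCACAC at none of the 6. CGATA also lies inside TATCGATA. Over all peaks CGATA lay in 13.4%, against 11.99% of flanks and 23.6% of start sites, and GGTCACAC, a core of the element that M1BP binds, in 0.534% of peaks and 4.68% of start sites. TATCGATA lay in 1.23% of peaks and 4.48% of start sites, and GAGAG in 9.99% and 12.7%. With shares this low over all peaks, the lack of TATCGATA, GAGAG and GGTCACAC in 6 windows does not set the members apart. Among member start sites GGTCACAC was found at ZIPIC only, TATCGATA at weck only and GAGAG at CG18476 only.

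Of the 59 other ZAD genes, the 11 with a reproducible promoter peak had signals from 55.5 to 92.9, all below M1BP. D19B was the strongest, at 92.9 (rank 648), with the summit 10 bp from the TSS of CG43293. CG4820 had 88.1 (rank 719) with the summit 16 bp from the ribosomal protein gene RpS25, and CG14711 and Zaf1 shared a peak of 87.7 (rank 728). Sry-delta, an activator of bicoid, had 86.5 (rank 754) with the summit 42 bp from its own TSS. CG3032 had 82.7, CG12942 80.5 with cag in the same window, and pad 75.1 with the splicing factor gene SF2. CG8319 had 68.9. CG11695 had 56.6 with e(y)2, a gene of the SAGA and TREX-2 complexes, and CG17328 had 55.5. For 10 of the 11 genes, all but Sry-delta, the TSS of another protein-coding gene lay within 500 bp of the same summit, and CG14711 and Zaf1 count for each other. This held for 2 of the 4 occupied members and for 907 of all 1411 occupied genes (64.3%).

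The peak of CG11695 ranked 15357 in replicate 2 and 1063 in replicate 4, a gap in the same direction as that of pita. The D19B peak ranked 1628 in replicate 2 and 480 in replicate 4. Just above the lowest reproducible signal stood CG17328, and just below it CG3281, at 51.0 (rank 2026), had a candidate that was not reproducible.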

How the data were processed

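Per the labels, chromatin of CG31388-GFP embryos was sonicated to 200 to 800 bp. The authors deposited narrowPeak lists, and the 4 on dm6 were used. Those of each replicate and of both pooled were derived from alignments and a control alignment, and the reproducible list from these by IDR, per the deposited read-me files. The signal in them is the authors' enrichment per region, and their deposited −log10 q-value was not used to rank. Aligner, peak caller, IDR threshold: not given in the sources used here. Depth is unknown.

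Summits were placed on Ensembl release 115 genes (same assembly as dm6) in Python 3.11.15 with pandas 2.3.3. A pooled summit inside a replicate's region took that region's rank. A summit within 5 kb of the annotated gene ends counted as near. The callers were tested on simulated data. Proteins were aligned with Biopython 1.88 (BLOSUM62, gap opening 11, extension 1). The wider list came from 84 protein-coding genes, of which 69, the 10 members included, held 2 C-x-x-C pairs 35 to 57 residues apart. The first pair had to lie within the first 130 residues, and the second before any C2H2 finger. Members and lists were chosen with earlier results of these data known, and no test was run on them. The rule for naming took the members, genes with a TSS within 1 kb, genes nearest the reproducible peaks within 5 kb, occupied wider ZAD genes, and the peaks 2 ranks above and below. Genes that hold other candidates, CG31441, CG3281 and those of the closing section, fall outside it and were named after their values were seen.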

Additional observations from a re-analysis of the deposited data

How the results depend on the processing

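The promoter count over members was 3 with a window of 250 bp (without M1BP), against 7.86% of coding genes. It was 4 with 1000 bp, against 11.5%, and 4 with any overlap, against 10.7%. In the 936 strongest peaks it was 3 (without pita), against 5.51%. With the nearest TSS only, at any distance, it was 2, and this setting took in 11.1% of coding genes. From the 1872 strongest regions of 1 library the member count was 3 (replicate 2 alone, without pita), against 9.88%, or 4 (replicate 4 alone), against 9.91%. The count of 11 other ZAD genes was 7 in the 936 strongest peaks and 9 to 11 from 1 library. With the nearest TSS only it was 7, a share near that 11.1%, both counted at any distance. Without the filter for the pattern it was 13 of 74. With the 24 unlisted genes that hold the pattern it was 17. Both of these alternatives were chosen after seeing the data. Over all coding genes 769 were occupied by the 936 strongest peaks, and 1378 to 1382 from 1 library. Members with a peak within 5 kb numbered 9 within 10 kb, against 39.3% of coding genes. In the 936 strongest peaks they numbered 3, against 16.2%. From 1 library they numbered 4 (replicate 4 alone, without weck) to 6 (replicate 2 alone, with CG31388), against 27.7% with either library. A candidate lay at 3 member promoters with 250 bp, against 35.1% of coding genes. From 1 library it was 6 to 7, against 45.8% and 46.6%. No paired analysis was possible because there is 1 group. With 2 libraries, unknown depth and no control library analysed here, no error could be estimated for signals and ranks.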

Other observations

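Outside the named list, 24 further genes had the paired-cysteine pattern and at least 2 C2H2 fingers, and 6 of them had a reproducible peak at the promoter, against 10.1% of all protein-coding genes. CG10147 was the strongest, with a signal of 207 (rank 100), rank 76 in replicate 2 and rank 130 in replicate 4, and its summit lay 71 bp from a TSS of Bulli and 186 bp from its own. CG4707 had 98.4 (rank 584), 54 bp from its TSS. CG15011 had 78.0 and CG1647 had 59.0. E(var)3-9, a modifier of position-effect variegation, had 58.6, and pzg, a chromatin protein of the NURF complex, had 55.1. These genes were found by their sequence pattern and named after their values were seen, and whether their pattern is a true ZAD domain was not tested.

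Candidates that missed the reproducible list by little included a region shared by idc and trem (signal 49.7, rank 2118) and 1 at CG10366 (47.8, rank 2258), all ZAD genes.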
